A study of Mus musculus with 2 samples.

Results

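The genes that build, branch, cut and anchor actin filaments were compared between neutrophils cultured without miR-223 and wild-type neutrophils. A list of 50 genes of the actin cytoskeleton and migration machinery was set by symbol. Of these, 47 had at least 1 probe set that the platform annotation gives to that gene alone, out of 18193 genes measured in the same way. Each gene took its brightest probe set, by the mean over both arrays. Actr2 and Arpc3 had no such probe set in the annotation used, and Arpc1b was annotated only together with a second gene, so these 3 have no value. Of the 47, 46 counted as expressed, and Pfn2, the neuronal profilin, did not, at an intensity of 12.9 in wild type and 14.1 in knockout. A gene counted as expressed when its mean log2(intensity + 16) reached the median of all probe sets other than array controls, an intensity of 33.9.

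The cells were grown from haematopoietic progenitors of male C57BL/6 mice, either wild-type or mir-223 knockout. Both cultures were kept for 6 days with G-CSF, the main growth factor of granulocytes, and SCF, which acts on progenitors through Kit. Both were also given cycloheximide, an inhibitor of translation, at 100 ug/ml for the last 8 min. Total RNA of each genotype was hybridised to 1 array, the labels do not say how many mice were used, and with no replicates no difference could be tested. Where 2 intensities are given for a gene below, the first is wild type and the second knockout. Cultures of this kind can hold other myeloid cells, and the labels name no sorting step.

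Neutrophils crawl by pushing out a leading edge of branched actin and squeezing the rear. Exchange factors load the GTPases Rac and Cdc42, Rac switches on WAVE and Cdc42 switches on WASP, and both activate the Arp2/3 complex to branch filaments. Profilin and thymosins hold actin monomers, cofilin and gelsolin take filaments apart, plastin and actinins bundle them, myosin II contracts them, and talin and kindlin tie them to integrins. MicroRNA-223 is abundant in the granulocyte lineage and pairs with target messages mainly through its seed. The gene missing in the knockout gives the mature RNAs mmu-miR-223-5p and mmu-miR-223-3p. The latter is printed from RefSeq (GRCm38.p6, chrX:96242884-96242905, plus strand) to show its seed, bases 2 to 8, in capitals.
mmu-miR-223-3p: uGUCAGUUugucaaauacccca

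As a group, actin genes stayed close to their wild-type levels, with a small displacement upward on the knockout array. Differences are given as log2(intensity + 16) of the knockout array less that of the wild-type array, a scale on which 0.3 is 1.23-fold. Of the 46 expressed genes, 31 were higher and 15 lower in the knockout, so 67.4% were higher, where 49.7% of all 11006 expressed genes were. The median difference was 0.04, beside -0.0004 over all expressed genes. Differences ran from -0.19 for Vasp to 0.35 for Dock8, and 40 of the 46 lay within 0.2 of 0 (87.0%, against 79.6% of all expressed genes). Only Dock8 and Lcp1 were at least 0.3 higher, which is 4.35% of the members beside a background of 5.23%. None was at least 0.3 lower, where the background was 2.88%. None reached 1.5-fold in either direction, a size passed by 1.08% of all expressed genes. With the expression limit raised to the 75th percentile, 30 of 45 members were higher, beside 49.9% of genes.

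**Figure D1:**
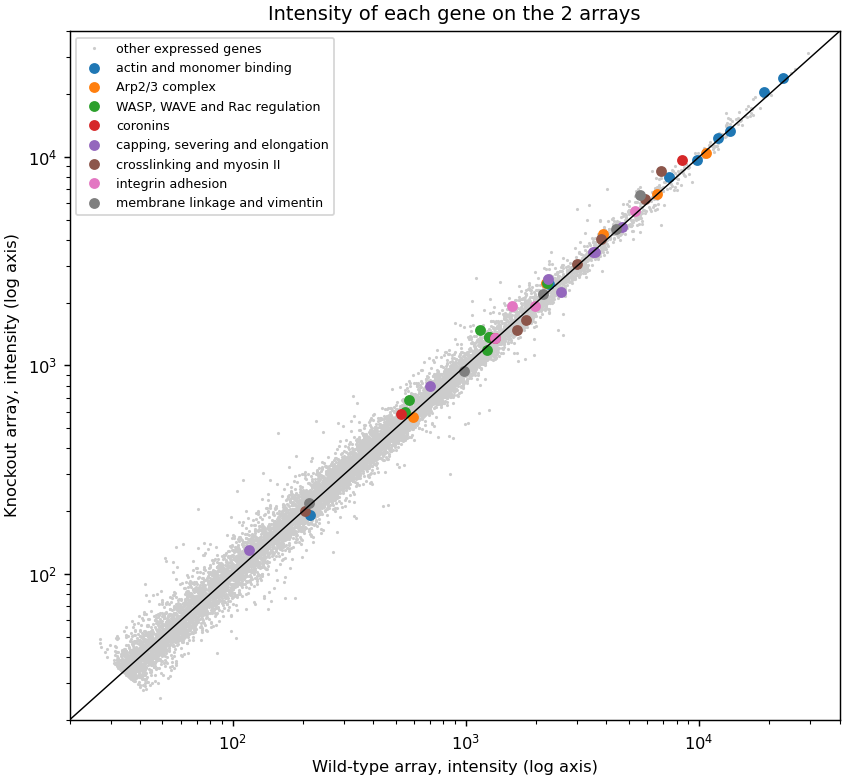
Wild-type intensity (horizontal, log axis) and knockout intensity (vertical, log axis). Each coloured point is 1 expressed member, coloured by role; grey points are the other expressed genes, and the line marks equal values. The members follow the line, with differences from -0.19 to 0.35 on the log2 scale.

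A within-array measure of spread was available in genes with several probe sets. Pooled over 5017 genes with at least 2 expressed probe sets, the SD between probe sets of the same gene was 0.144, which is not a replicate error. Of the 46 members, 31 differed by less than this (67.4%, beside 65.7% of all expressed genes). The 33 members with at least 2 expressed probe sets were less evenly divided. In 18 of them the expressed probe sets shared a sign (54.5%, background 51.9%). In 17 of them every expressed probe set was higher in the knockout (51.5%, background 30.2%), and in 1, Ezr, every one was lower (3.03%, background 21.7%). The other 15 had probe sets of both signs. Over single probe sets, 77 of the 105 expressed ones were higher (73.3%, background 53.6%), with a median of 0.09. When each gene took the mean of its expressed probe sets, 37 of 46 members were higher (80.4%, background 52.3%) and the median was 0.09. Probe sets of 1 gene share the same RNA and the same array, so these counts describe the 2 arrays and do not replicate the genotype.

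**Figure D2:**
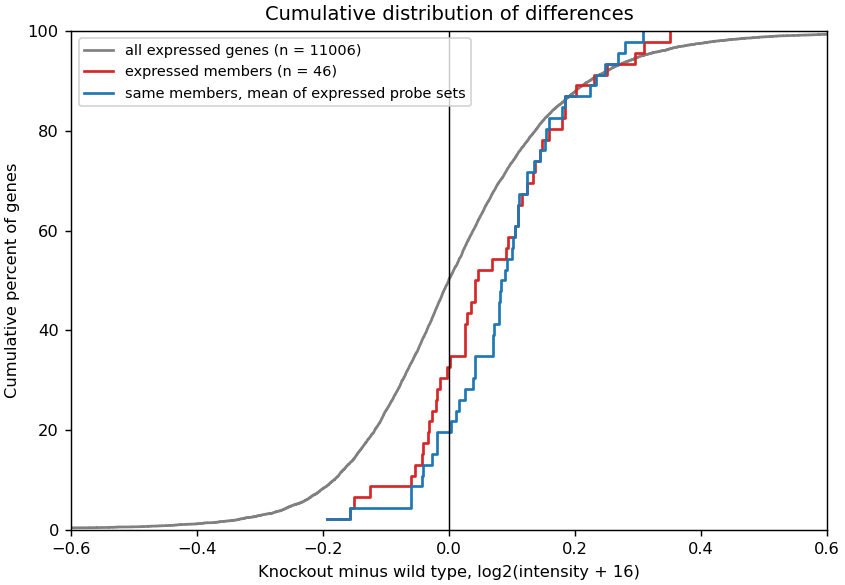
Cumulative percent of genes (vertical) against the difference between knockout and wild type (horizontal, log2 scale) for all 11006 expressed genes, for the 46 expressed members, and for the same members by the mean of their expressed probe sets. At 0 the curves of the members lie below the curve of all genes, and their tails are shorter on both sides.

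Actin itself was nearly level. Actb, beta-actin, gave 22858 in wild type and 23977 in knockout, a difference of 0.07. A dimmer Actb probe set went from 286 to 353. The 3 control probe sets that the array carries for beta-actin, which were not used to choose the gene's value, went from 24376 to 24977 at the 3' end, from 18765 to 20276 in the middle and from 19399 to 20966 at the 5' end, or 0.04, 0.11 and 0.11. Actg1, gamma-actin, gave 13507 and 13333 on its only probe set (-0.02). On their brightest probe sets both cytoplasmic actins differed by less than the spread between probe sets.

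Genes for proteins that bind actin monomers had small differences above 0 on their brightest probe sets, cofilins aside. Tmsb4x, thymosin beta 4, which holds monomers in reserve, gave 18942 in wild type and 20438 in knockout (0.11). Its relative Tmsb10 gave 12083 and 12377 (0.03), and its other expressed probe sets gave 0.09 and 0.28. Without probe sets marked as shared between transcripts, Tmsb10 was left with an unexpressed one, at -0.33. Pfn1, profilin, which feeds monomers to growing ends, gave 7398 and 7980 (0.11), and Twf2, twinfilin, gave 2272 and 2444 (0.10).

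Cofilins, which sever and depolymerise filaments, had probe sets that disagreed. Cfl1, the cofilin of non-muscle cells, gave 9838 and 9698 on its brighter probe set (-0.02) but 5344 and 5980 on the other (0.16). Cfl2, the muscle cofilin, gave 215 and 192 on the brightest (-0.15), while the other 2 stood at 0.33 and 0.03. No single direction can be given for either gene from these arrays. Over the 8 expressed genes of actin and monomer binding, 5 were higher and the median was 0.05.

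The Arp2/3 complex, which nucleates branched filaments, was divided on its brightest probe sets. Of the 5 subunits with a value, 3 were higher and 2 were lower, around a median of 0.0008. Actr3, the Arp3 subunit, gave 6627 in wild type and 6630 in knockout, with its 3 probe sets between 0.0008 and 0.08. Arpc2, which holds the complex on the mother filament, gave 10737 and 10423 (-0.04), with a dimmer probe set at 0.19. Arpc1a gave 592 and 567 (-0.06). Arpc4 gave 2196 and 2488 (0.18, and 0.02 on its other probe set), and Arpc5 gave 3873 and 4282 (0.14). The signs of the smallest differences have no weight here, as Actr3 turned negative under quantile normalization and under loess.

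Activators upstream of branching were more often higher on their brightest probe sets. Of 7 genes that regulate WASP, WAVE and Rac, 6 were higher, with a median of 0.13. By the mean of expressed probe sets, 5 of the 7 were higher (median 0.08), and 4 of 5 Arp2/3 subunits were (median 0.07). That measure did not set the activators apart from the complex. Dock8, an exchange factor for Cdc42 in leukocytes, had the largest difference of all members, from 1154 to 1475 (0.35). Its other 3 expressed probe sets did not repeat this, at -0.11, -0.20 and 0.001, and their mean with the brightest was 0.01. Vav1, a Rac exchange factor downstream of immune receptors, gave 571 and 682 (0.25), but 224 and 212 on the other probe set (-0.07). Dock2, the main Rac activator of neutrophil chemotaxis, gave 1258 and 1364 (0.12), with its 2 dimmer probe sets at -0.04 and -0.13. Thus the 3 exchange factors shared a direction only on their brightest probe sets.

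Among the scaffold genes around WASP, Wipf1 and Wasf2 were higher on each of their 2 probe sets, and Was and Hcls1 had 1 each. Wipf1, the WASP-interacting protein that protects WASP from degradation, gave 546 and 601 (0.13) and, on the second probe set, 471 and 611 (0.36). Was, the haematopoietic WASP itself, gave 1226 and 1191 (-0.04) on its only probe set. Wasf2, the WAVE protein of leukocytes, gave 2223 and 2484 (0.16, and 0.01 on the other). Hcls1, the leukocyte relative of cortactin that stabilises branches, gave 1258 and 1373 (0.12). Wipf1 was the member of this set in which more than 1 probe set was higher by at least 0.1.

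Coronins, which sit on branched actin and guide its turnover, were higher throughout. Coro1a, the coronin of haematopoietic cells, gave 8453 in wild type and 9609 in knockout (0.18). Its other probe sets went from 7060 to 8053 and from 90.3 to 117, or 0.19 and 0.33. Coro1c gave 527 and 586, and its 3 expressed probe sets lay between 0.15 and 0.17. Coro1b gave 1326 and 1350 (0.03) on 1 probe set. Coro1a and Coro1c were among the members in which every expressed probe set exceeded the pooled probe set SD.

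**Figure D3:**
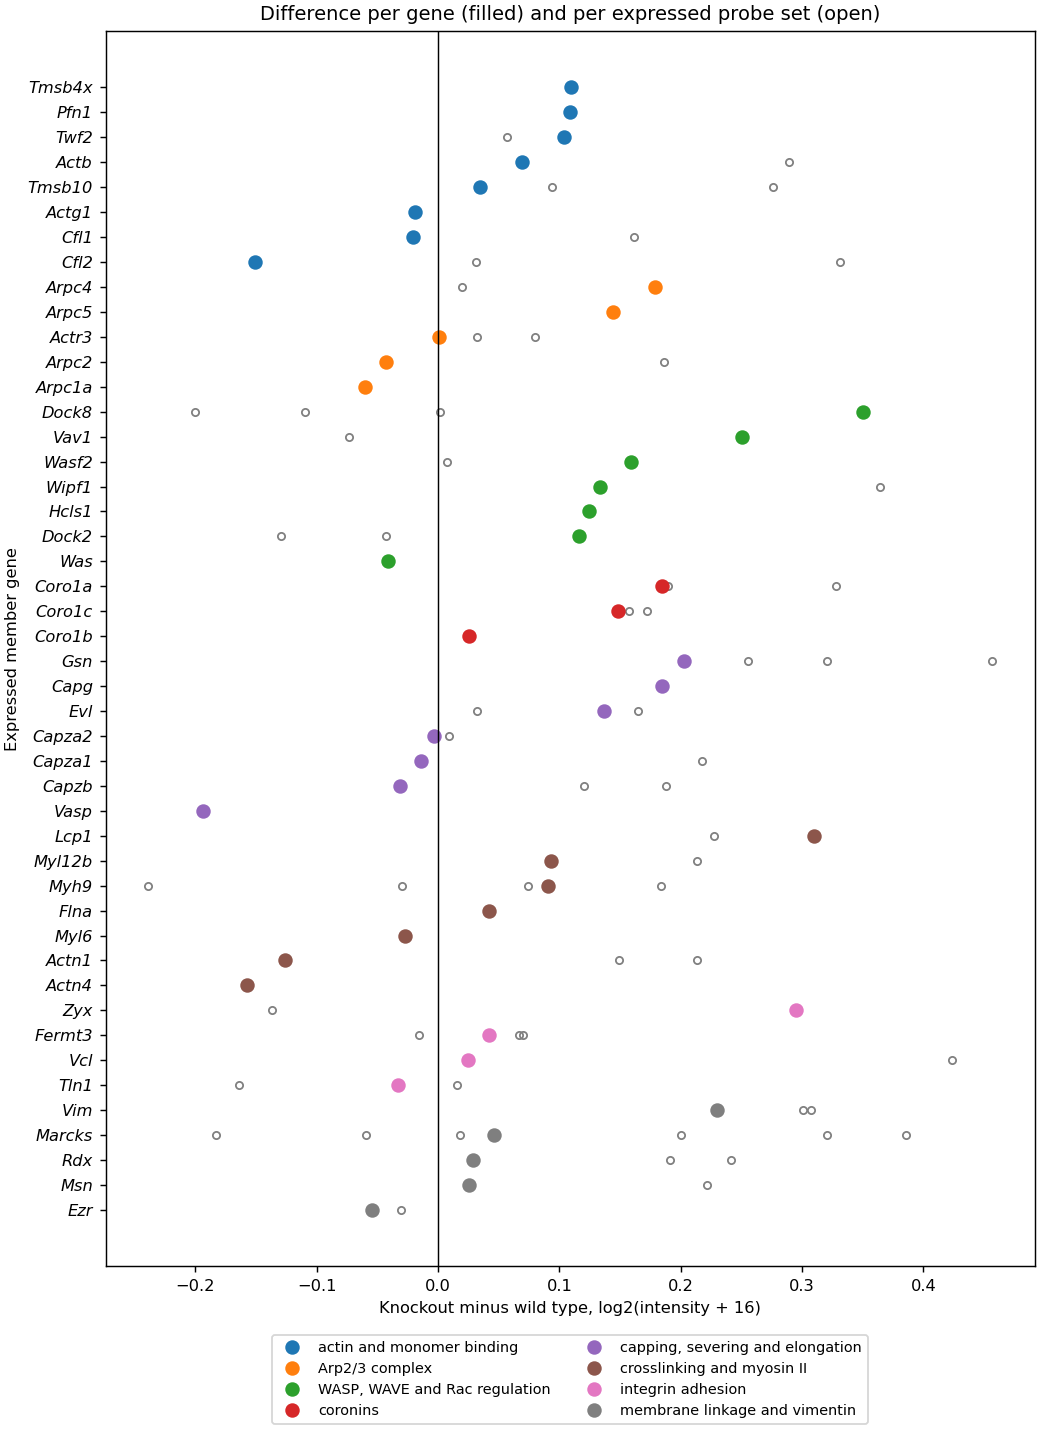
Difference between knockout and wild type (horizontal, log2 scale) for each of the 46 expressed members (vertical), grouped by role. Filled points are the brightest probe set of a gene and open points its other expressed probe sets; Gsn, Vim, Lcp1, Coro1a and Coro1c keep all points right of 0.1, while Dock8, Zyx and Actn1 have points on both sides of 0.

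Gelsolin had the largest difference among genes for proteins that cap, cut and lengthen filaments, and every expressed probe set was higher. Gsn, the calcium-activated severing protein, gave 2259 in wild type and 2602 in knockout (0.20). Its other 3 expressed probe sets went from 1123 to 1344, from 1045 to 1441 and from 835 to 1047, or 0.26, 0.46 and 0.32. The mean of the 4 was 0.31, the highest of any member by that measure. The related Capg, a capping protein of macrophages and granulocytes, gave 699 and 797 (0.18) on its only expressed probe set.

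The capping protein heterodimer, which blocks barbed ends, was level on its brightest probe sets. Capza1 gave 4656 and 4610 (-0.01), Capza2 gave 3491 and 3482 (-0.004) and Capzb gave 3582 and 3505 (-0.03). Dimmer probe sets were at 0.22 for Capza1, 0.01 for Capza2, and 0.12 and 0.19 for Capzb, so the mean of probe sets was above 0 in each. The 2 Ena/VASP proteins, which lengthen filaments, went opposite ways. Vasp had the lowest difference of all members, from 2563 to 2238 (-0.19) on 1 probe set, and Evl gave 118 and 131 (0.14) with its 3 expressed probe sets between 0.03 and 0.17. Setting the arrays level on their spike-in controls shifts every gene alike, and Vasp, as the lowest, was then the only member below 0.

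Lcp1, L-plastin, the actin bundler of leukocytes, was the bundling protein with the largest difference. It gave 6864 in wild type and 8509 in knockout (0.31), and its second probe set gave 4980 and 5834 (0.23). The actinins, which crosslink filaments in stress fibres and adhesions, were lower on their brightest probe sets. Actn4 gave 1653 and 1480 (-0.16) on 1 probe set. Actn1 gave 1810 and 1657 (-0.13), but its dimmer probe sets were higher, at 0.15 and 0.21. Flna, filamin A, gave 2985 and 3073 (0.04).

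Non-muscle myosin II, the motor that contracts the rear of the cell, differed little. Myh9, its heavy chain, gave 3807 and 4055 (0.09), and its 5 probe sets ran from -0.24 to 0.18. The light chain gene Myl12b gave 5856 and 6248 (0.09, and 0.21 on a dimmer probe set). Myl6 gave 204 and 200 (-0.03) on the only probe set annotated to it alone; others shared with predicted genes were not used. In all, 4 of the 7 crosslinking and myosin genes were higher, with a median of 0.04.

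Genes that join actin to integrins were level apart from zyxin. Tln1, talin, which activates integrins, gave 1972 and 1927 (-0.03), with its other probe sets at -0.16 and 0.02. Fermt3, the kindlin of blood cells, gave 5312 and 5469 (0.04), with 4 probe sets from -0.02 to 0.07. Vcl, vinculin, gave 1326 and 1350 (0.02), whereas its dimmer probe set went from 132 to 182 (0.42). Zyx, zyxin, gave 1575 and 1936 (0.30), just below the size counted, and its dimmer probe set went the other way, from 132 to 119 (-0.14). The largest values in this set were thus each carried by 1 of 2 probe sets.

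Vimentin was higher on every probe set by more than the pooled SD, while the ERM genes were near level on their brightest probe sets. Vim, the intermediate filament protein of leukocytes and mesenchymal cells, gave 5601 in wild type and 6570 in knockout (0.23). Its other probe sets went from 3244 to 4018 (0.31) and from 2711 to 3343 (0.30). Of the ERM proteins, which link the membrane to cortical actin, Msn, moesin, gave 4416 and 4496 (0.03, and 0.22 on the other), Rdx, radixin, gave 2148 and 2192 (0.03, with others at 0.24 and 0.19), and Ezr, ezrin, gave 982 and 945 (-0.05, and -0.03 on the other). Marcks, a membrane-bound regulator of cortical actin, gave 212 and 220 (0.05), and its 7 probe sets ran from -0.18 to 0.39.

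Msn lies beside the targeted locus. In GRCm38.p6 the Msn promoter window ends 147 kilobases before the Mir223 hairpin on chromosome X, with 0 protein-coding genes between them. The other X-linked members, Tmsb4x, Flna and Was, differed by 0.11, 0.04 and -0.04. All 4 X-linked members were within the spread between probe sets on their brightest probe set.

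Paralogs were compared side by side where at least 2 were expressed. In 6 of 9 such sets the members shared a sign on their brightest probe sets. In 6 of 9 these differences lay within the pooled probe set SD of each other. No share was computed for sets of other genes, so the counts have no background. Among the sets of 1 sign, Cfl1, Cfl2, Capza1, Capza2, Actn1, Dock2 and Dock8 each had expressed probe sets of both signs. The narrowest was Capza1 with Capza2, 0.01 apart. The widest was Vasp with Evl, 0.33 apart, followed by Dock2 with Dock8 at 0.23 and the coronins at 0.16.

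Serum response factor, SRF, is a known regulator of actin genes and binds the CArG box, so RefSeq promoters (GRCm38.p6, 250 bases before to 50 after the start) were searched for it on both strands. Of the listed genes, Actb, Coro1b, Marcks and Twf2 had no promoter in the table, so they were not searched. The other 46 had 57 windows. A CArG box was in 4 of these windows (7.02%), against 1.63% of all 32851 windows and 1.25% of the 11439 windows of expressed genes. They are shown because they are the SRF motif matches among these genes, with the box in capitals: Actg1 (chr11:120348446-120348745, minus strand), Vcl (chr14:20929148-20929447, plus strand), Arpc4 (chr6:113377863-113378162, plus strand) and 1 of the 2 windows of Myl6 (chr10:128492960-128493259, minus strand).
Actg1: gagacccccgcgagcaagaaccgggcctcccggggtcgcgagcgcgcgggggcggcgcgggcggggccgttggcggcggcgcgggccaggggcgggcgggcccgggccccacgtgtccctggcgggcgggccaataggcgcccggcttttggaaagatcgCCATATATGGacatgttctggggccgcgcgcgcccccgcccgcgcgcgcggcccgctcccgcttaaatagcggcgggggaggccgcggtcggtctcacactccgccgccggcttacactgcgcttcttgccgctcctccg
Vcl: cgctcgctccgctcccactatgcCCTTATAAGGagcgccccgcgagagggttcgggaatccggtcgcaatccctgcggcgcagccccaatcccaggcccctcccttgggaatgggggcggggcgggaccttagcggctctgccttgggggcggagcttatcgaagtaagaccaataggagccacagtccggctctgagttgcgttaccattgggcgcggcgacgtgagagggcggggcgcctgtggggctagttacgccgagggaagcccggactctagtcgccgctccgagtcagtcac
Arpc4: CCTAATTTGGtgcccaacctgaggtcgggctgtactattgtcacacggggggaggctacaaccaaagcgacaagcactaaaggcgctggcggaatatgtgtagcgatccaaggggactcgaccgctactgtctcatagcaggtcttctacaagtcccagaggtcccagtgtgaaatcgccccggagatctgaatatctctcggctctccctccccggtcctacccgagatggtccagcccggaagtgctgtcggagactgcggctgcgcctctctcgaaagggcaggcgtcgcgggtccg
Myl6: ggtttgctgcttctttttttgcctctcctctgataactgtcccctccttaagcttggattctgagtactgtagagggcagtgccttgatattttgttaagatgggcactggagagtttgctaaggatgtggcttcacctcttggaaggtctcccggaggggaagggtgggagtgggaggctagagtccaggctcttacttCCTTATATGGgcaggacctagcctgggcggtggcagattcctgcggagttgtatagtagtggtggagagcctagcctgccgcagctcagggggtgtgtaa

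Counted from the transcription start, the box began at position -90 in Actg1, -227 in Vcl, -250 in Arpc4 and -50 in Myl6. These 4 genes differed by -0.02, 0.02, 0.18 and -0.03 on their brightest probe sets. All but Arpc4 were below the pooled probe set SD of 0.144. The second probe set gave 0.42 for Vcl and 0.02 for Arpc4, so no common direction can be read from the genes with a match. Genes of the SRF pathway itself were near level. Of 7 expressed ones, 3 were higher and 4 lower (median -0.05), and none reached 0.3. Srf gave 459 in wild type and 425 in knockout (-0.11), and its coactivators Mrtfa and Mrtfb stood at 0.03 and -0.05. Tagln, a smooth muscle actin binder, had the largest difference of the list, from 47.5 to 40.2 (-0.18).

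The ETS core GGAAGT, bound by factors such as PU.1, was in 30 of the 57 windows on either strand (52.6%), against 23.8% of all windows and 28.6% of those of expressed genes. The Sp1 core GGGCGG was in 41 (71.9%), against 35.7% and 61.7%. The upstream one of the 2 Lcp1 windows (chr14:75130873-75131172, plus strand) is shown as that of the member with the largest difference repeated on a second probe set, with both cores in capitals, on either strand. It holds GGAAGT once and GGGCGG 4 times, and no CArG box.
Lcp1: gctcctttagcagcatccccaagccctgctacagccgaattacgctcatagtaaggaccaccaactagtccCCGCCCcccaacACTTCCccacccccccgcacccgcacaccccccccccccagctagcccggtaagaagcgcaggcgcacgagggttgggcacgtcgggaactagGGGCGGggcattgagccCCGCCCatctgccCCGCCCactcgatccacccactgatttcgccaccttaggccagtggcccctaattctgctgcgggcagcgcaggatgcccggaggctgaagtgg

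The wider pathway was read from 5 further lists of 67 genes that are not members, the SRF pathway among them. Of 51 expressed genes, 31 were higher (60.8%, beside 49.7% of all expressed genes) and 20 lower. At least 0.3 higher were 2 of them, Ssh3 and Cap1 (3.92%, background 5.23%), and 1, Myo1e, was at least 0.3 lower (background 2.88%).

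Nucleation regulators and filament turnover genes were also more often higher than lower. Of 14 expressed nucleation regulators 11 were higher, with a median of 0.09, led by the formin Fmnl2 (0.29) and by Elmo1, the partner of Dock2 (0.26, and 0.21 on its other probe set), with Abi3 at 0.24 and Diaph3 at -0.21. Of 10 turnover genes 7 were higher, with a median of 0.15. These included Cap1, which recycles monomers with cofilin, from 796 to 988 (0.31, and 0.43 on the second probe set). The cofilin phosphatases Ssh3 and Ssh2 stood at 0.38 and 0.27, Ssh3 on 1 dim probe set (91.5 and 124). Of the kinases that phosphorylate cofilin, Limk1 gave 86.6 and 105 (0.24). The brighter Limk2 gave 232 and 221 (-0.06), with its 3 probe sets from -0.11 to 0.04.

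Contractility genes were divided. Of 10 expressed genes of contractility and tropomyosins, 4 were higher and 6 lower (median -0.04). Myo1e, a membrane-linked myosin, went from 53.6 to 35.9 (-0.42), and its leukocyte relative Myo1f stood at 0.22. Of the tropomyosins, Tpm1 stood at -0.21 (0.15 on its other expressed probe set) and Tpm4 at -0.10. Tpm3, the brightest of them, went from 7666 to 8098 (0.08), with its 5 expressed probe sets between 0.05 and 0.41. Of 10 further crosslinking, adhesion and membrane linkage genes, 6 were higher, with a median of 0.09. The list was led by Apbb1ip, which brings talin to integrins (0.25, but -0.06 on its other expressed probe set). Pls3, the plastin of non-blood cells, stood at 0.20, Ilk at 0.13 and the ERM kinase Stk10 at -0.12.

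**Figure D4:**
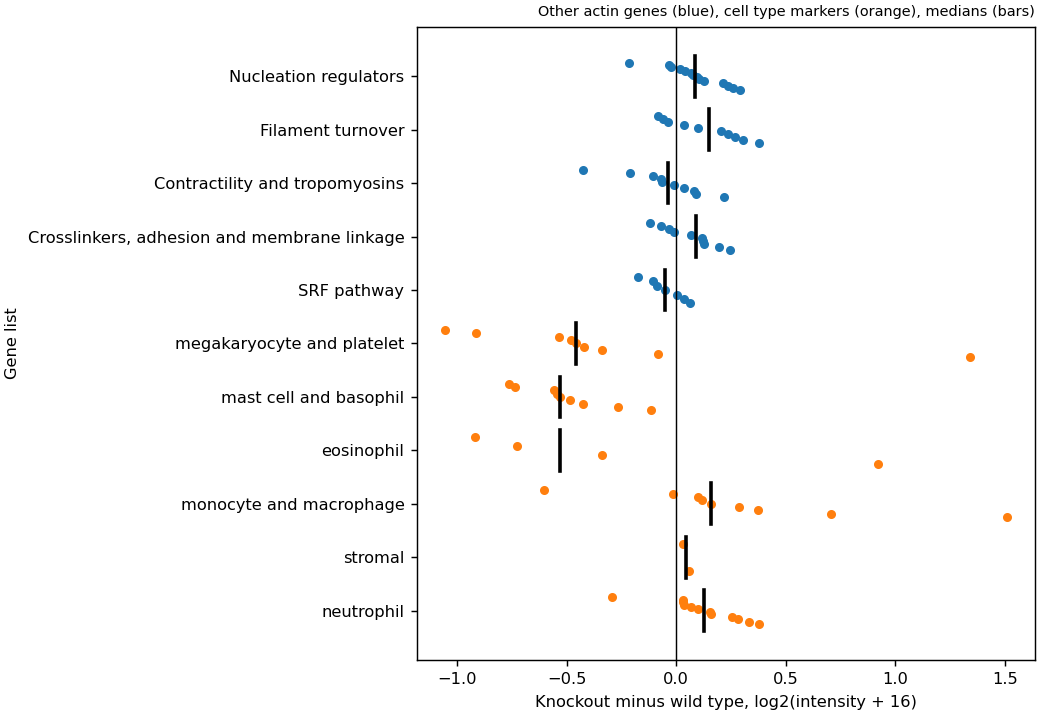
Differences between knockout and wild type (horizontal, log2 scale) for expressed genes of 5 other actin lists (blue) and 6 cell type marker lists (orange), with the median of each as a bar. The other actin genes lie between -0.42 and 0.38, and most mast cell, megakaryocyte and eosinophil markers lie left of 0.

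Several members are also made by other cells of such cultures, and in bulk RNA fewer cells of a type and less RNA per cell cannot be told apart. Neutrophil markers were expressed in 12 of 12 measured genes, 11 of them higher, with a median of 0.13. The largest differences were those of Cxcr2 (0.38), Csf3r (0.33), Camp (-0.29) and Mmp8 (0.28). Their summed intensity over all 12 was 160055 in wild type and 168078 in knockout. Macrophages make much Vim, Gsn, Capg and Lcp1. Of 12 monocyte and macrophage markers 9 were expressed and 7 of these were higher, led by Apoe (1.51), Ly86 (0.71) and Gpnmb (0.37), with Cx3cr1 at -0.60, and the sum over the 12 went from 6673 to 7775. Of the complement genes of macrophages, C1qb was expressed (0.16) and C1qa and C1qc were not, and neither was Mrc1. The part of this list in the values of the members was not tested.

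Megakaryocytes and platelets are rich in Flna, Tln1, Vcl, Myh9 and Actn1. Of 10 measured markers of that lineage 9 were expressed, 8 lower and 1, Itgb3, higher (1.34, and 0.37 on its other probe set), with a median of -0.46, and their sum went from 2237 to 1460. Of 9 expressed markers of mast cells and basophils 9 were lower, with a median of -0.53 and a sum going from 6013 to 4057. Of 4 expressed eosinophil markers 3 were lower and Siglecf was higher, from 187 to 370 (0.92), with a median of -0.53 and a sum over all measured markers going from 1233 to 1006. Their part in the members' values was not tested. Of 6 stromal markers, which could accompany Vim and Cfl2, Col1a2 (42.5 and 43.8, 0.03) and Pdgfrb (34.4 and 36.4, 0.06) were expressed, and Col1a1, Col3a1, Lum and Dcn were not.

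The scale of the arrays bears on every sign given here. Median intensities over all probe sets other than controls were 34.1 in wild type and 33.7 in knockout. The poly-A spike-in controls, RNAs added in known amounts, were lower on the knockout array in 24 of 24 probe sets, with a median of -0.17. Set level on them, all expressed genes stood at a median of 0.17 and the members at 0.22, and 45 of 46 members were higher, beside a background of 88.7%. The knockout could not be checked at its own gene, since no probe set carried that annotation.

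**Figure D5:**
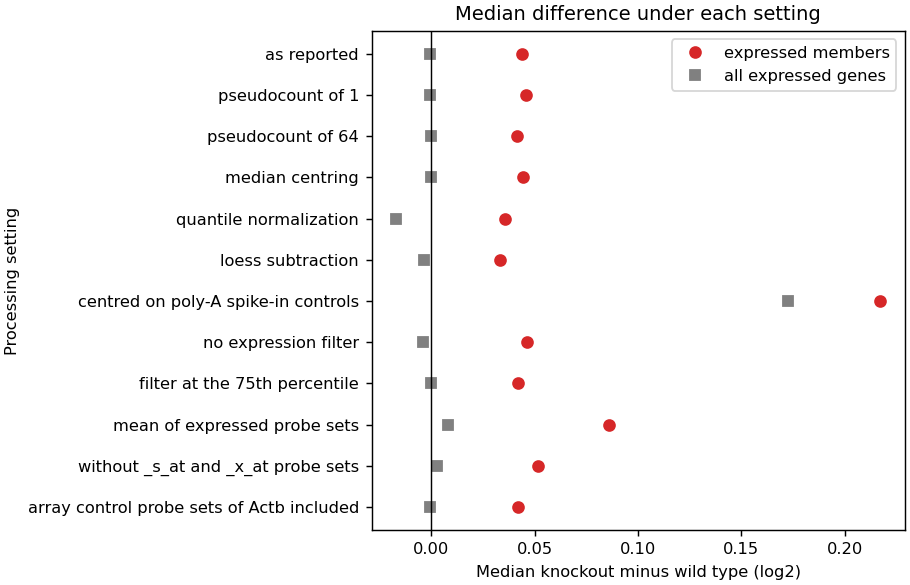
Median difference between knockout and wild type (horizontal, log2 scale) of the expressed members (circles) and of all expressed genes (squares) under each processing setting (vertical). The members' median lies above that of all genes in each setting shown, at 0.04 as reported and 0.22 with the arrays centred on the spike-in controls.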

How the data were processed

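Total RNA of 1 wild-type and 1 mir-223 knockout culture was measured on 3' expression arrays, and samples were grouped by genotype. The authors deposited linear intensities, 1 for each probe set on each array; their background correction, summarization and normalization are not given in the sources used. Per the labels, Trizol RNA was labelled with the Affymetrix 3' IVT Express kit, so signal comes mainly from 3' ends. Of 45101 probe sets, 64 were array controls; of the rest, 34945 were annotated to 1 gene, 932 to several and 9160 to none, and only the first kind was used. For 34741 of these the symbol was taken from RefSeq (GRCm38.p6) through the Entrez identifier. How many symbols differed from the annotation was not counted, and the step changed no member.

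Intensities became log2(intensity + 16), which understates differences of dim genes. The pooled probe set SD, counts and medians were computed with Python 3.11.15, pandas 2.3.3 and statsmodels 0.14.6 (loess, span 0.3). With 1 array a group no test was run, and the number of arrays limits the precision. The procedure was tested on simulated data. The planted changes were larger than any member's difference, and the noise was smaller than the pooled probe set SD. That test therefore does not bear on differences as small as those reported. All 50 members could be named, and of the 11 other lists up to 4 expressed genes with the largest differences and any at 0.3 or more; where fewer are named, the list's counts cover the rest. Mrtfa, Mrtfb, C1qb, Tpm3, Limk2 and the markers that were not expressed were named after their values were seen. Members and lists were chosen with earlier results of these data known. A further planned list is not reported here. Alternatives were other pseudocounts, normalizations, expression filters and choices of probe set.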

Additional observations from a re-analysis of the deposited data

How the results depend on the processing

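Under all 11 alternatives the median of the members stayed above 0 and above that of all expressed genes. Several of these settings could change little. Median centring and spike-in centring shift every gene alike, so the gap between the medians is fixed under them. Including the Actb controls changes Actb alone, and dropping the expression filter adds only Pfn2 to the members. The members' median moved most with the arrays centred on the poly-A controls, to 0.22, where 14 members were at least 0.3 higher (background 21.5%). The count of members at least 0.3 higher was 1 under quantile normalization (Dock8; Lcp1 at 0.295), 1 under loess (Dock8; Lcp1 at 0.29) and 1 with the mean of expressed probe sets (Gsn), where Dock8 stood at 0.01. Zyx was 0.08 and Vcl 0.22 with that mean, and Cfl1 0.16 without shared probe sets. Of 516 values of single members under alternatives, 56 moved by the pooled probe set SD or more, 47 of them by the spike-in centring, which shifts every gene alike. Signs of members changed in 14 genes under that centring, in 8 with the mean of probe sets, in 4 without shared probe sets, and in 1 (Actr3) under quantile normalization and under loess. No paired analysis was possible because each genotype has 1 array, and for the same reason no array could be left out. Precision is limited by the number of arrays; Pfn2 was too dim to give a level.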
